A study of Mus musculus with 8 samples.

Results

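The data describe 10 genes that write or organise histone methylation in the hearts of mouse embryos at embryonic day 9.5. They are Ezh1, Ezh2, Eed, Suz12 and Jarid2 of Polycomb repressive complex 2, the H3K4 methyltransferases Kmt2a, Kmt2b, Kmt2c and Kmt2d, and Wdr5. The members were taken by gene symbol, as 10 of the 49315 genes in the count table, and all 10 were among the 16377 genes that passed the filter on low counts. Male hearts (4 libraries) and female hearts (4 libraries) of the C57BL/6 strain were sequenced, with no mutant allele or treatment in the labels; sex had been assigned by Sry genotyping of other embryonic tissue. The sources used here do not state whether hearts were pooled or whether litters were shared, so the p-values cover only the spread among these libraries, which may be technical.

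Total counts ran from 20105913 to 51134291 per library. Heart muscle markers were high throughout, with the troponin Tnnt2 at 3990 to 9060 CPM (counts normalised to library size, with edgeR's TMM factors) and the transcription factor Nkx2-5 at 409 to 630 CPM. Male replicate 2 stood apart from the other 7 libraries. It had a score of 74.8 on the first principal component, against -47.8 to 23.4 elsewhere, the smallest TMM factor (0.864, against 0.982 to 1.07) and the smallest mitochondrial share of counts (0.707%, against 0.999% to 1.72%). Values that it moves are also given without it. In whole tissue, fewer cells of a type and less RNA per cell cannot be told apart.

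Polycomb repressive complex 2 places methyl groups on lysine 27 of histone H3, a mark of silenced genes. Ezh2 and Ezh1 are its alternative catalytic subunits, Ezh2 being known mostly from dividing cells and Ezh1 from resting ones. Eed binds the finished mark, Suz12 holds the complex together and Jarid2 helps it find its targets. Kmt2a and Kmt2b methylate lysine 4 of histone H3 mainly at promoters and Kmt2c and Kmt2d mainly at enhancers, and Wdr5 is a subunit that their complexes share. In mice, loss of Ezh2, Jarid2 or Kmt2d in the developing heart is known to cause malformations.

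The promoter stretches of 4 members are shown because their levels carry the results: Ezh2 and Ezh1 form the ratio described here, and Kmt2a and Kmt2c were the pair of Kmt2 genes whose correlation over 8 libraries passed its test. Each is the 250 bases before a RefSeq transcription start, 5′ to 3′ on the strand of the gene, from the GRCm38.p6 table, which matched 9 of the 10 genes, all but Kmt2b. The Ezh2 stretch (chr6:47595031-47595280, minus strand) and the Ezh1 stretch (chr11:101226464-101226713, minus strand) have the CCAAT box (CCAAT or its reverse ATTGG) in capitals.
Ezh2: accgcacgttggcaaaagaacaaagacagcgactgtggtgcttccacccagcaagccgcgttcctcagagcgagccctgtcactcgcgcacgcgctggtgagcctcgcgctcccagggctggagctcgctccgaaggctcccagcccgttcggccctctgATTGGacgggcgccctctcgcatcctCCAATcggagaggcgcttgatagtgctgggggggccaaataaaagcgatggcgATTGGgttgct
Ezh1: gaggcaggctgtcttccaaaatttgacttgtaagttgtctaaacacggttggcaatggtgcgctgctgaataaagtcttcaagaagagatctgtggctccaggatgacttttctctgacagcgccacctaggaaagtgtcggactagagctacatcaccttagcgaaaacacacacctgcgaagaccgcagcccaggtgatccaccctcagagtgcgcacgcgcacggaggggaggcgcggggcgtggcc
The Ezh2 stretch held 3 CCAAT boxes and 23 CG dinucleotides, and the Ezh1 stretch held 0 and 14. In the gene annotation used for the counts, Ezh2 reaches 47595341, so its stretch lies within the gene. Ezh1 ends at 101226463, so its stretch lies outside. In the table, 33.8% of 32851 such stretches held at least 1 CCAAT box, and the median count of CG dinucleotides was 6. The stretches of Kmt2a (chr9:44881290-44881539, minus strand) and Kmt2c (chr5:25498784-25499033, minus strand) have the GC box (GGGCGG or its reverse CCGCCC) in capitals.
Kmt2a: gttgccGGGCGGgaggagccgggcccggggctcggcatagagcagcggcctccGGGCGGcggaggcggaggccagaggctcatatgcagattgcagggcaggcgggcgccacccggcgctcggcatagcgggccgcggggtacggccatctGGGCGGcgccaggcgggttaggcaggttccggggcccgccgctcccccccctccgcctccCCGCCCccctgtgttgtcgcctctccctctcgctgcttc
Kmt2c: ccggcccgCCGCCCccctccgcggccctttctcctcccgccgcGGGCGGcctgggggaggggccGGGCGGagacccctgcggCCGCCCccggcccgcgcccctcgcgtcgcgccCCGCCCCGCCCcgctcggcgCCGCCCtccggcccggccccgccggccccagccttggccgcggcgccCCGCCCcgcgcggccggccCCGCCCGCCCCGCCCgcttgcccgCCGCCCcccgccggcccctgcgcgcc
The Kmt2a stretch held 4 GC boxes and the Kmt2c stretch held 12, counting each start position and overlapping matches, where 32.7% of all stretches held at least 1. The Kmt2c stretch was 91.6% G and C. A further search took the E2F sequences TTTCCCGC, TTTCGCGC, TTTGGCGC and TTTGCCGC on both strands, which 1.86% of all stretches held. Of the 9 genes with a stretch, 1 matched, Suz12, with TTTCCCGC. These matches are letters in a window and were not set against any measurement of binding.

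Corrected for length, the 10 genes spanned a range of more than 10-fold, with Wdr5 and Ezh2 at the top and Kmt2c and Ezh1 at the bottom. Over the 8 libraries, Wdr5 averaged 19.3 ± 2.06 CPM per kb of exonic length and Ezh2 16.7 ± 1.99 (SD, n = 8 here and in the rest of the paragraph). Suz12 followed at 13.0 ± 1.72 and Eed at 12.4 ± 1.83 CPM per kb, then Jarid2 at 6.82 ± 0.188 and Kmt2b at 6.79 ± 0.491. Kmt2a stood at 3.49 ± 1.11, Kmt2d at 3.15 ± 0.498, Kmt2c at 1.74 ± 0.591 and Ezh1 at 1.67 ± 0.176 CPM per kb. Among all tested genes, Wdr5 lay above 83.0% and Ezh1 above 36.3% of genes in mean CPM per kb. Neighbours in this order were separated beyond the spread between libraries in 4 of 9 steps. Ezh2 exceeded Suz12, Eed exceeded Jarid2, Kmt2b exceeded Kmt2a and Kmt2d exceeded Kmt2c in 8 of 8 libraries each. Wdr5 and Ezh2 (higher in 7 of 8), Suz12 and Eed (5 of 8), Jarid2 and Kmt2b (5 of 8), Kmt2a and Kmt2d (4 of 8) and Kmt2c and Ezh1 (3 of 8) differed by less than the SD of their log2 ratio. The order depends on which length is used: over GENCODE coding lengths, a choice made after seeing the data, Ezh1 stood at 5.51 ± 0.581 CPM per kb, above Kmt2a at 4.89 ± 1.56, Kmt2d at 3.74 ± 0.591 and Kmt2c at 2.40 ± 0.815.

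**Figure D1:**
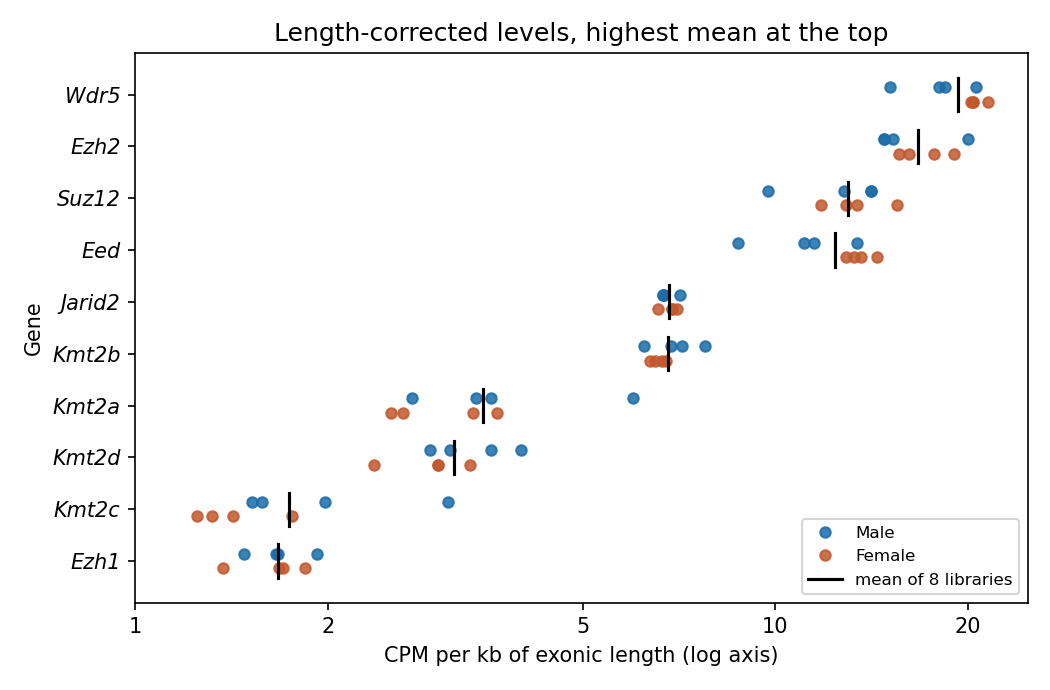
Length-corrected level of each gene (CPM per kb of exonic length, log axis) in 4 male and 4 female libraries, one point per library, with a black bar at the mean of 8. The genes fall into steps, from Wdr5 at 19.3 to Ezh1 at 1.67 CPM per kb, and one male library of Kmt2a and of Kmt2c lies to the right of the rest.

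Ezh2 was the more abundant transcript of the catalytic subunits in every library, at 7.94 to 13.9 times the length-corrected level of Ezh1. Ezh2 (chromosome 6, 47530139 to 47595341, GRCm38, as for all positions of genes) stood at 98.6, 133, 102 and 99.0 CPM in Male replicates 1 to 4, and at 127, 118, 108 and 104 CPM in Female replicates 1 to 4. Male replicate 2 and Female replicate 1 were highest, and the sexes overlapped. Without a TMM factor, Male replicate 2 stood at 115 CPM, below Female replicate 1 at 128 CPM. Ezh1 (chromosome 11, 101191115 to 101226463) stood at 12.4, 11, 14.3 and 12.4 CPM in the male libraries and at 10.2, 12.5, 12.7 and 13.7 CPM in the female libraries. Female replicate 1 and Male replicate 2 were its lowest libraries, and the sexes overlapped. Without TMM factors the same libraries were lowest for Ezh1, whereas Male replicate 2 was the third highest for Ezh2, after Female replicates 1 and 2.

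The ratio of Ezh2 to Ezh1, per kb, does not depend on how a library is scaled. It was 8.83, 13.4, 7.94 and 8.91 in Male replicates 1 to 4 and 13.9, 10.5, 9.53 and 8.50 in Female replicates 1 to 4. Both sexes thus held 1 library above 13 and others below 11. The means were 9.78 ± 2.48 in males and 10.6 ± 2.32 in females (SD, n = 4 each). The log2 ratio differed between males and females by -0.12, less than its SD of 0.32 within a sex (exact 2-sided permutation p = 0.571, smallest possible 0.0286). Without Male replicate 2 the difference was -0.29, and without Female replicate 1 it was 0.01. Ezh1 gave 6.92% to 11.2% of the summed level of both subunits in males and 6.73% to 10.5% in females.

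Markers of foregut and of hepatic tissue were highest in the same 2 libraries. Taken as log2 CPM less the mean of 8 libraries and averaged over 10 markers, foregut and pharyngeal epithelium scored 0.90 in Male replicate 2 and -1.08 to -0.66 in the other males, and 1.77 in Female replicate 1 and -0.74 to 0.63 in the other females. The summed level of the 10 ran from 232 to 537 CPM in males and 239 to 439 CPM in females. Of the 10, 4 had at least 1 CPM in every library, and Shh had 0 counts in at least 1 library. On the same scale, 5 tested hepatic and yolk sac markers scored 2.11 in Male replicate 2 and -1.44 to 0.92 in the other males, and 3.28 in Female replicate 1 and -2.11 to -0.23 in the other females. The 7 listed hepatic markers summed to 3.60 to 36.6 CPM in males and 2.47 to 78.8 CPM in females, and Alb, Fgb and Apob had 0 counts in at least 1 library. Epicardial markers were lowest in these 2 libraries, at -0.4 in Male replicate 2 and -0.46 in Female replicate 1. Markers of endocardium and endothelium were also lowest in them, at -0.29 and -0.14. In the same order, heart muscle scored 0.37 and -0.13, erythroid markers -0.27 and -0.43, and neural crest markers -0.02 and -0.17. The part of these tissues in the ratio was not tested.

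**Figure D2:**
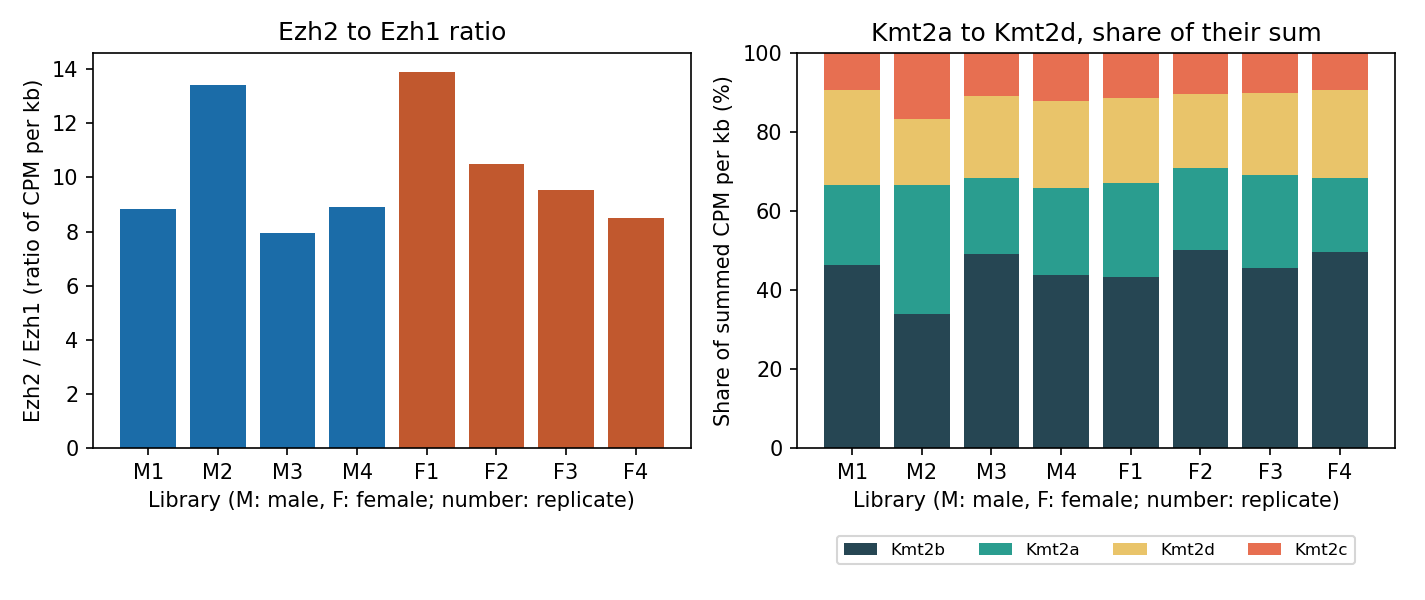
Left, ratio of Ezh2 to Ezh1 in CPM per kb in each library, males (M) left of females (F). Right, share of each Kmt2 gene in the summed CPM per kb of the 4. M2 (13.4) and F1 (13.9) have the highest ratios, and M2 has the lowest share of Kmt2b (33.9%) and the highest of Kmt2c (16.7%).

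The non-catalytic core subunits Eed and Suz12 were lowest in Male replicate 2, with TMM factors and without them. Eed (chromosome 7, 89954654 to 89980983) stood at 44.1, 33.5, 51.3 and 42.4 CPM in the male libraries and at 55.0, 51, 49.3 and 52.2 CPM in the female libraries. Male replicates 1, 2 and 4 lay below every female, and Male replicate 3 lay among them. Suz12 (chromosome 11, 79993106 to 80034123) stood at 69.8, 48.2, 69.6 and 63.4 CPM in males and at 66.4, 63.6, 58.3 and 76.6 CPM in females. Male replicate 2 was lowest and Female replicate 4 highest, with the sexes overlapping. Relative to their means over 8 libraries, Male replicate 2 was at -0.48 for Eed, -0.41 for Suz12 and 0.27 for Ezh2 on the log2 scale.

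Jarid2, the accessory subunit, was the steadiest of the 10. Jarid2 (chromosome 13, 44729474 to 44921643) stood at 65.1, 68.9, 64.8 and 64.9 CPM in males and at 68.2, 67.0, 63.7 and 67.1 CPM in females. Its coefficient of variation over 8 libraries was 2.75%, close to the 2.21% that counting error alone gives for its counts. Of the 9243 tested genes with a mean of at least 10 CPM, 0.27% had a smaller one. This steadiness depends on the scaling. Without TMM factors the coefficient was 5.77%, and 7.31% of those genes were steadier. Male replicate 2 was the highest library for Jarid2 with the factors and the lowest, at 59.4 CPM, without them.

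**Figure D3:**
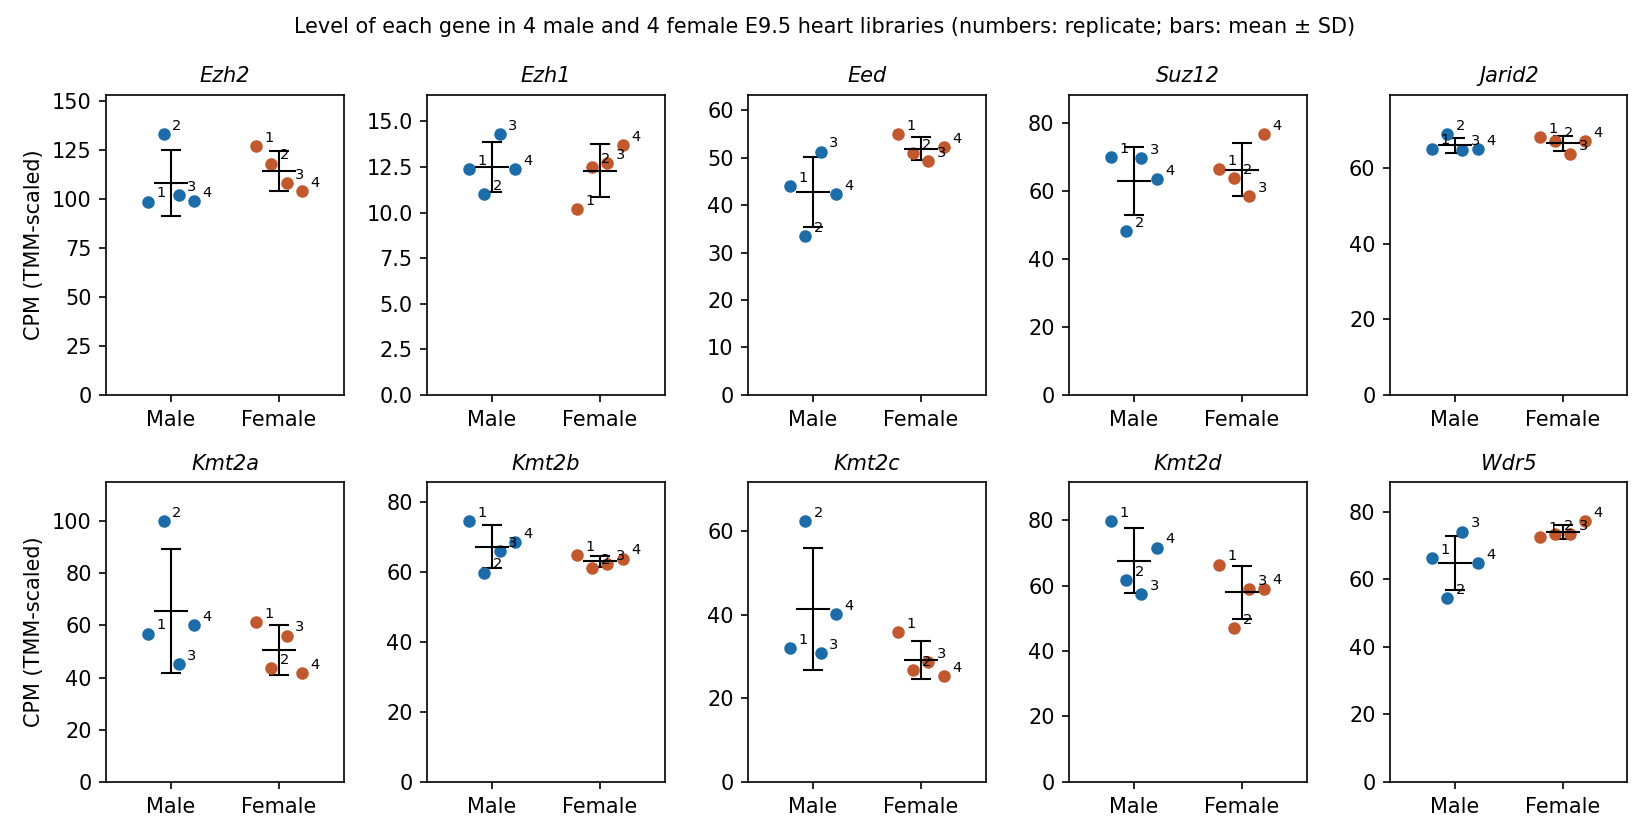
CPM scaled by TMM factors of each gene in male (left) and female (right) libraries. Points are libraries with their replicate number, and bars give mean ± SD of 4. Male replicate 2 lies apart for Ezh2 (133 CPM), Kmt2a (100 CPM) and Kmt2c (62.4 CPM), and Jarid2 lies between 63.7 and 68.9 CPM throughout.

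Among the H3K4 methyltransferases, Kmt2b had the highest and Kmt2c the lowest length-corrected level in all 8 libraries. Kmt2a and Kmt2d held the places between, Kmt2a above Kmt2d in 4 libraries (Male replicate 2 and Female replicates 1, 2 and 3) and below it in the other 4. Kmt2b gave 33.9% to 49.1% of the summed CPM per kb of the 4 genes in males and 43.4% to 50.3% in females. Kmt2c gave 9.42% to 16.7% in males and 9.37% to 11.4% in females. The sum was 16.4 ± 1.82 CPM per kb in males and 14 ± 1.23 in females (SD, n = 4 each), and Male replicate 2 was its highest library at 18.4. Over GENCODE coding lengths, Kmt2b was highest and Kmt2c lowest in 87.5% of libraries.

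Kmt2a and Kmt2c varied widely, most of all with Male replicate 2 included. Kmt2a (chromosome 9, 44803355 to 44881296) stood at 56.9, 100, 45.2 and 60 CPM in Male replicates 1 to 4 and at 61.4, 43.6, 56.1 and 41.8 CPM in Female replicates 1 to 4. Kmt2c (chromosome 5, 25271798 to 25498783) stood at 32, 62.4, 30.8 and 40.2 CPM in males and at 35.8, 26.7, 28.7 and 25.4 CPM in females. Male replicate 2 was the highest library for both and Female replicate 4 the lowest. Their coefficients of variation, 32% and 34.0%, were larger than those of 94.9% and 95.8% of the 9243 genes with at least 10 CPM, and far above the counting error of 2.41% and 3.12%. They were 15.9% and 16.6% without Male replicate 2, still larger than those of 89.9% and 91.4% of these genes. That of Kmt2d was 17.0% without that library, larger than in 92.3% of genes, and 15.8% with it. Both genes have long transcripts (16670 and 20291 exonic bases). Kmt2d, with 19887 exonic bases, stood at -0.01 in Male replicate 2 relative to its mean on the log2 scale, where Kmt2a was at 0.84 and Kmt2c at 0.88. The median of the 1166 tested genes over 10 kb was -0.0557 in that library. Its slope of log2 CPM on log2 exonic length was the lowest, 0.567, against 0.634 to 0.775 in the others. Over the 8 libraries, r with this slope was -0.85 for Kmt2a, -0.76 for Kmt2c and -0.04 for Kmt2d. The strongest among the members was 0.93, for Suz12, which has 4945 exonic bases. With the first principal component, r was 0.94 for Kmt2a, 0.87 for Kmt2c, 0.11 for Kmt2d and -0.91 for Suz12. The part of transcript length in the peak was not tested.

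The other Kmt2 genes lacked the peak in Male replicate 2. Kmt2b (chromosome 7, 30568858 to 30588726) stood at 74.5, 59.8, 66.0 and 68.6 CPM in males and at 64.7, 61.2, 62.3 and 63.8 CPM in females. Kmt2d (chromosome 15, 98831669 to 98871204) stood at 79.7, 61.6, 57.4 and 71.6 CPM in males and at 66.4, 46.9, 59.0 and 59.1 CPM in females. Male replicate 1 was the highest library for both, and the sexes overlapped. Wdr5 (chromosome 2, 27515157 to 27536535), the subunit shared by all Kmt2 complexes, stood at 66.2, 54.3, 74.1 and 64.7 CPM in males and at 72.6, 73.4, 73.3 and 77.2 CPM in females. Males other than Male replicate 3 lay below every female.

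**Figure D4:**
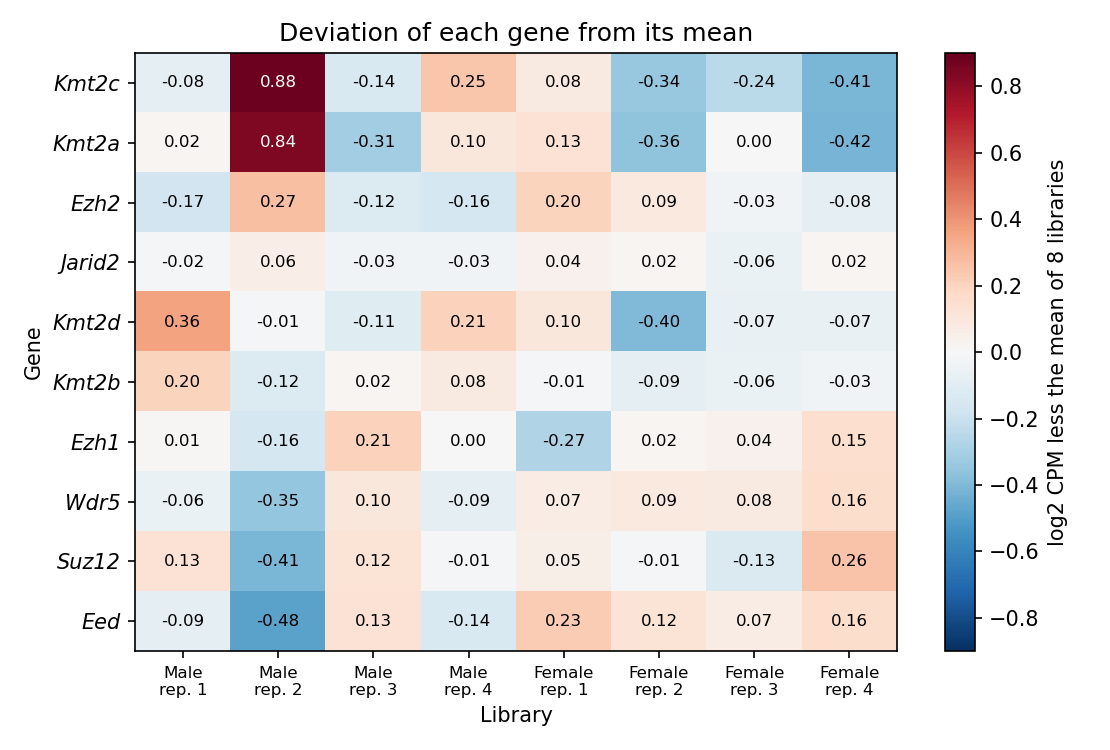
Log2 CPM of each gene less its mean over 8 libraries, males left of females. Male replicate 2 holds the largest deviations, from -0.48 for Eed to 0.88 for Kmt2c, and Jarid2 stays within 0.06 of its mean.

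No member passed the test between male and female hearts, which asked whether the sexes differ at this stage. Over all 16377 genes, edgeR's quasi-likelihood test called 6 genes, or 0.0366%, at an adjusted p under 0.05 (Benjamini-Hochberg), and 0 of the 10 members. By direction, 0.0305% of all genes were called as higher and 0.00611% as lower in males. At an unadjusted p under 0.05 there were 2 members, Eed and Kmt2c, where 2.24% of all genes passed that mark. DESeq2 and limma-voom also called 0 members, with 2 and 1 at an unadjusted p under 0.05. In 0 of 10 members did male and female libraries separate without overlap, which 2.25% of tested genes did. Of the 10, 5 had higher and 5 lower values in males, and the median log2 fold change was 0.009, against 0.011 over all tested genes. With Male replicate 2 left out, 6 were higher and 4 lower, with a median of 0.06.

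The size of these differences depended on single libraries, Male replicate 2 among them. Kmt2c averaged 41.4 ± 14.6 CPM in males and 29.2 ± 4.6 CPM in females (SD, n = 4 each). The difference on the log2 scale was 0.51 with a standard error of 0.22, and its adjusted p in edgeR was 1. Kmt2a averaged 65.6 ± 23.9 CPM in males and 50.7 ± 9.52 CPM in females, a log2 fold change of 0.37 ± 0.24. Without Male replicate 2 these values were 0.24 for Kmt2c and 0.10 for Kmt2a. Kmt2d had a log2 fold change of 0.23 ± 0.14 and Kmt2b of 0.09 ± 0.08, which were 0.27 and 0.15 without that library. On the other side, Eed averaged 42.8 ± 7.32 CPM in males and 51.9 ± 2.42 CPM in females, a log2 fold change of -0.28 ± 0.12, which was -0.18 without Male replicate 2. Wdr5 had a log2 fold change of -0.19 ± 0.10, Ezh2 of -0.08 ± 0.12, Suz12 of -0.08 ± 0.13, Jarid2 of -0.01 ± 0.07 and Ezh1 of 0.03 ± 0.12. Without Male replicate 2, Ezh2 was at -0.20, Wdr5 at -0.12, Ezh1 at 0.09 and Suz12 at 0.03. Other libraries also moved these values. With any single library left out, Kmt2c ran from 0.24 to 0.63 and Kmt2a from 0.10 to 0.51. On the same basis, Kmt2d ran from 0.14 to 0.3 and Kmt2b from 0.042 to 0.15. Eed ran from -0.38 to -0.18, Ezh2 from -0.20 to -0.021 and Wdr5 from -0.26 to -0.12. Male against female libraries were simulated with 16097 genes, 200 genes changed and each gene drawn independently. The fit recovered 19.4% of 1.5-fold changes, 60.9% of 2-fold changes and 93.9% of 4-fold changes, and called 10 unchanged genes. In the data 6 genes were called and Male replicate 2 stood apart, so recovery there may be lower. Smaller differences may have gone undetected with this number of libraries.

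Across the 8 libraries, 4 of the 45 pairs of members passed a test of their correlation in log2 CPM (exact 2-sided permutation tests over all 40320 pairings, adjusted over the 45 pairs). Kmt2a and Kmt2c moved together, with Pearson's r = 0.95 (exact permutation p = 0.00164, adjusted p = 0.0446) and Spearman's rho = 0.95 (exact permutation p = 0.00114, adjusted p = 0.0513). Eed and Wdr5 had r = 0.97 (exact permutation p = 0.00236, adjusted p = 0.0446) and rho = 0.76 (exact permutation p = 0.0368, adjusted p = 0.207). Wdr5 ran opposite to Kmt2a, with r = -0.91 (exact permutation p = 0.00397, adjusted p = 0.0446) and rho = -0.90 (exact permutation p = 0.00456, adjusted p = 0.0685). It also ran opposite to Kmt2c, with r = -0.94 (exact permutation p = 0.00384, adjusted p = 0.0446) and rho = -0.90 (exact permutation p = 0.00456, adjusted p = 0.0685). The number of pairs that passed was 0 without Male replicate 1, 2 or 4 or Female replicate 2 or 4, 1 without Male replicate 3 or Female replicate 3, and 8 without Female replicate 1. None of the 4 passed by Spearman's rho or without Male replicate 2, when r was 0.81, 0.89, -0.69 and -0.76 in the same order. Without the 2 libraries farthest from the median of the first gene, r was 0.73 for Kmt2a and Kmt2c, 0.78 for Eed and Wdr5, -0.55 for Kmt2a and Wdr5, and -0.54 for Kmt2c and Wdr5.

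Such correlations were common among all genes in these libraries. Of the 45 pairs of members, 6.67% had r of at least 0.8 and 11.1% had r of at most -0.8. Over all 134094876 pairs of tested genes, the shares were 7.86% and 7.73%. Without Male replicate 2 the shares were 6.67% and 0% of member pairs, and 4.68% and 4.51% of all pairs. Male replicate 2 was the highest or the lowest library for 8 of the 10 members, and for 75.2% of tested genes with at least 10 CPM. Female replicate 4 was so for 4 of the 10 members and for 51.2% of those genes. The part of either library in the correlations was not tested beyond leaving it out. Within the core of Polycomb repressive complex 2, Eed and Suz12 had r = 0.75 (exact permutation p = 0.0426, adjusted p = 0.137, rho = 0.62 with exact permutation p = 0.115), which was 0.20 without Male replicate 2. Ezh2 and Eed had r = -0.24 (exact permutation p = 0.598, rho = 0.12 with exact permutation p = 0.793), which was 0.74 without Male replicate 2. Ezh1 and Ezh2 had r = -0.75 (exact permutation p = 0.031, adjusted p = 0.134, rho = -0.40 with exact permutation p = 0.327), and -0.70 without that library. Kmt2b and Kmt2d had r = 0.78 (exact permutation p = 0.025, adjusted p = 0.125, rho = 0.60 with exact permutation p = 0.132), and 0.88 without it. With the 2 libraries farthest from the median of the first gene left out, r was 0.05 for Eed and Suz12, 0.61 for Ezh2 and Eed, -0.68 for Ezh1 and Ezh2, and 0.80 for Kmt2b and Kmt2d.

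**Figure D5:**
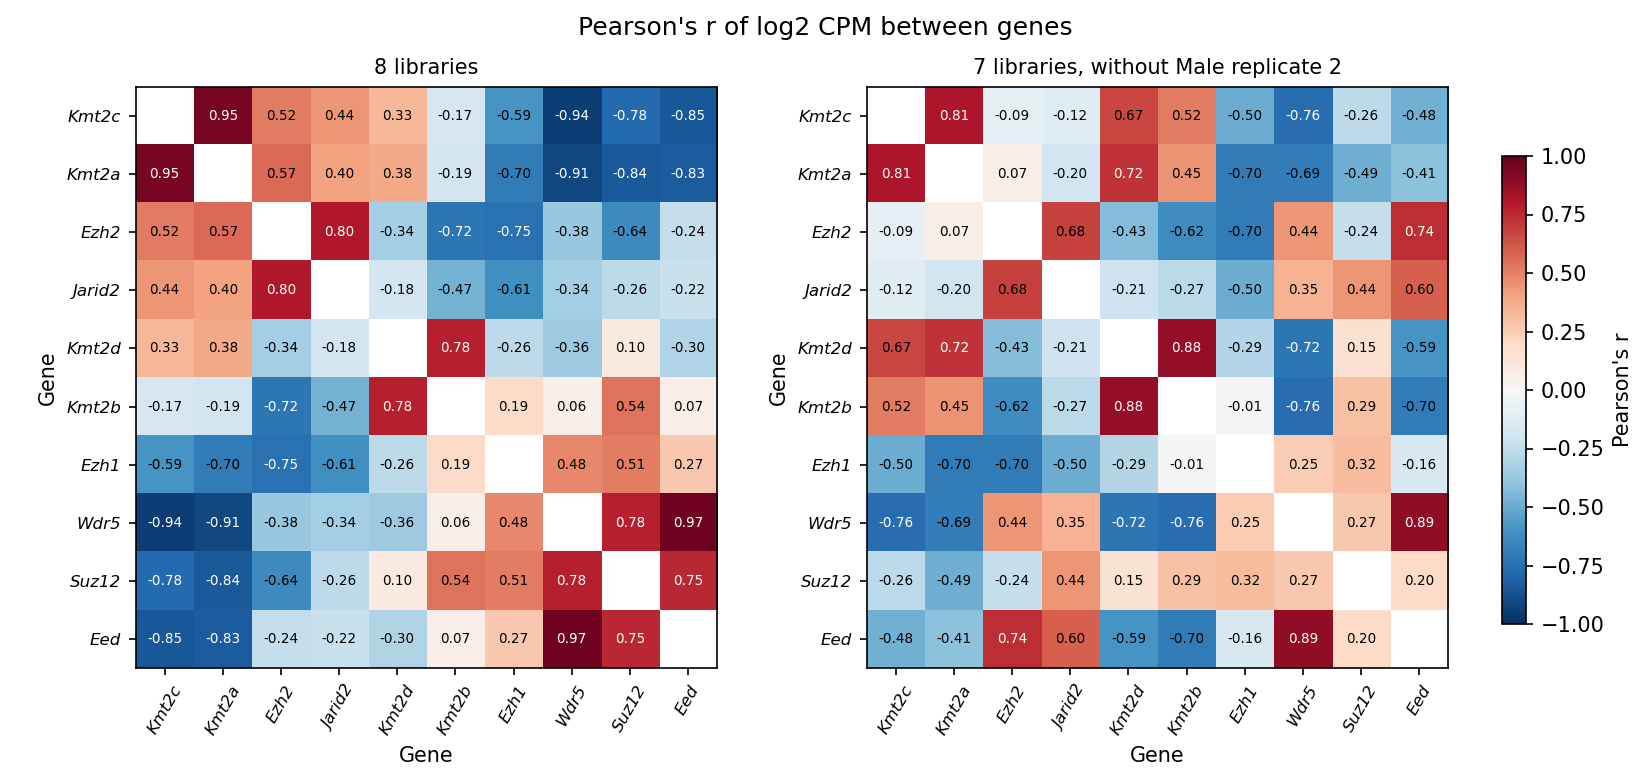
Pearson's r of log2 CPM for the 45 pairs of genes over 8 libraries (left) and over 7 libraries without Male replicate 2 (right). Kmt2a and Kmt2c form a positive pair in both (0.95 and 0.81), while Ezh2 and Eed are at -0.24 on the left and 0.74 on the right.

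By Pearson's r over the 8 libraries, the genes most like Ezh2 were the histone chaperone Nap1l1 (r = 0.984), the proton pump subunit Atp6v1h (0.978) and the nucleolar protein Utp3 (0.974). Nap1l1 stood at 648 to 861 CPM in males and 676 to 870 CPM in females, with its highest libraries, like those of Ezh2, in Male replicate 2 and Female replicate 1. The genes most like Ezh1 were Tcp11l2 (0.990), the lysozyme Lyz2 (0.983) and the ubiquitin ligase Nhlrc1 (0.983). Their levels were low, with means of 2.83, 8.05 and 2.32 CPM. These values describe 8 libraries and were picked as the highest of all tested genes.

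Other genes of the same machinery were taken as lists. Of 7 further measured subunits of Polycomb repressive complex 2, core and accessory, 0 were called. Of these, 3 had higher and 4 lower values in males, and the median log2 fold change was -0.05. The counts were 1 higher and 6 lower without Male replicate 2. The histone-binding proteins Rbbp7 and Rbbp4 had the highest length-corrected levels, 141 ± 16 and 33.0 ± 6.13 CPM per kb (SD, n = 8). Of 19 genes of Polycomb repressive complex 1, which ubiquitinates histone H2A, 0 were called, 3 were higher and 16 lower in males, with a median of -0.05, but without Male replicate 2, 12 were higher and 7 lower, with a median of 0.03. On the scale used for the marker lists, they scored -0.41 in Male replicate 2 and between -0.05 and 0.19 in the other 7. Yaf2 (32.2 ± 5.90 CPM per kb) and Pcgf5 (23.9 ± 2.42) led this list. Of 14 tested subunits of the H3K4 methyltransferase complexes, 0 were called, 5 were higher and 9 lower in males, with a median of -0.05, but without Male replicate 2, 9 were higher and 5 lower, with a median of 0.04. The shared subunit Dpy30 (90.1 ± 13.6 CPM per kb) and the chromatin reader Psip1 (46.5 ± 10.8) led it.

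Of these lists, only those of the demethylases held called genes. The called genes lie on chromosome Y, so the grouping by sex alone sets them apart. Of 3 genes listed as H3K27 demethylases, 1 was called, Uty on chromosome Y (1096861 to 1245759). It had 228 to 373 counts in male libraries and 0 to 3 in female libraries (adjusted p = 2.59e-06, edgeR). Its X-linked relative Kdm6a averaged 16.4 ± 1.79 CPM in males and 27.5 ± 1.47 CPM in females (SD, n = 4 each). The log2 difference was -0.75 with a standard error of 0.10 and missed the threshold in edgeR (adjusted p = 0.0719) but passed it in DESeq2 (adjusted p = 8.82e-08) and, without Male replicate 2, in edgeR (adjusted p = 0.0229). The autosomal Kdm6b averaged 89.8 ± 8.37 CPM in males and 81.3 ± 5.10 CPM in females and did not pass. Of 6 H3K4 demethylases, 1 was called, Kdm5d on chromosome Y, with 298 to 509 counts in males and 1 to 2 in females (adjusted p = 2.24e-05, edgeR). Kdm1a (28.5 ± 1.11 CPM per kb, SD, n = 8) and Kdm5c (11.5 ± 2.02) had the highest length-corrected levels of that list. Kdm5c, on chromosome X, averaged 71.9 ± 9.23 CPM in males and 92.0 ± 11.3 CPM in females (SD, n = 4 each). Its log2 difference was -0.36 with a standard error of 0.12 (unadjusted p = 0.0168, edgeR), and it was not called. Of the 6 genes, 2 were higher and 4 lower in males.

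Of 5 genes known from mouse hearts as repressed by Ezh2, 4 were tested. The cell cycle inhibitor Cdkn2b averaged 0.28 ± 0.112 CPM in males and 0.328 ± 0.0792 CPM in females (SD, n = 4 each), and Cdkn2a, which was not tested, had 3 to 19 counts in males and 6 to 14 in females. The transcription factor Pax6 averaged 2.24 ± 1.11 CPM in males and 2.53 ± 0.688 CPM in females, and the cardiac progenitor factor Isl1 averaged 18.3 ± 8.29 CPM in males and 19.9 ± 4.98 CPM in females. None of the 4 tested genes was called, and all 4 had lower values in males. On the scale used for the marker lists, their mean was highest in Male replicate 2 (0.67) and Female replicate 1 (0.48), the libraries with the highest ratio of Ezh2 to Ezh1 and the highest foregut and hepatic markers. Without Male replicate 2 the log2 fold change of Isl1 was -0.49, against -0.12 with it, and the median of the 4 was -0.48, against -0.18 with it. Of 14 cell cycle genes, 0 were called, 2 were higher and 12 lower in males, with a median of -0.13, and without Male replicate 2 the counts were the same and the median -0.04. Their mean was lowest in Male replicate 2 (-0.25) and lay between -0.08 and 0.12 in the other 7 libraries. The replication clamp Pcna averaged 204 ± 39.0 CPM in males and 248 ± 11.4 CPM in females, and the ribonucleotide reductase Rrm2 averaged 206 ± 15.2 CPM in males and 225 ± 8.82 CPM in females. The log2 fold change of Pcna was -0.29, and -0.18 without Male replicate 2.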

How the data were processed

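Heart RNA of 4 male and 4 female libraries was analysed from the raw counts per gene that the authors deposited. The submitters' processing notes name STAR 2.5.2b, Trimmomatic 0.36, Subread 1.5.2 with featureCounts, and GRCm38 (mm10). The sources used here state no annotation release, strand setting or handling of multiply mapped reads, so antisense reads may be included. A deposited table of normalized signal holds the counts divided by 1 factor per library (relative tolerance 1e-06) and served as an alternative. Exonic lengths come from the deposited count tables.

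The sex comparison used R 4.3.3 and edgeR 4.0.16 on the counts (filterByExpr, minimum count 10, TMM factors, robust quasi-likelihood test, male minus female, Benjamini-Hochberg over 16377 genes). Correlations used log2 CPM with a prior count of 0.5 and exact permutation in Python 3.11.15 with numpy 2.4.6. The fit was tested on simulated counts. Alternatives were DESeq2 1.42.0, limma 3.58.1 (voom, or the log2 normalized signal plus 1), other scalings and filters, a length covariate, a replicate block and left-out libraries.

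The members and gene lists were chosen with earlier results of these data known. The genes named are the 10 members, every tested gene of lists of up to 5, the called genes and the 2 with the highest CPM per kb of longer lists, and the 3 genes most like Ezh2 and Ezh1; 1 gene that this rule takes is not reported here. Promoter sequences are from RefSeq on GRCm38.p6.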

Additional observations from a re-analysis of the deposited data

Results flagged for a closer look

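Among 22 groups of 4 libraries (10 genes and the Ezh2 to Ezh1 ratio in each sex), 3 had a library far from the other 3 by Dixon's criterion, where chance flags about 1 in 20 groups. Ezh2 in Male replicate 2 stood at 133 CPM, against 98.6 to 102 CPM in the other males. The gap depended on the scaling: without TMM factors it was 115 CPM against 100 to 106 CPM. Jarid2 in Male replicate 2 stood at 68.9 CPM, against 64.8 to 65.1 CPM in the other males, and was the lowest male library without TMM factors. Wdr5 in Female replicate 4 stood at 77.2 CPM, against 72.6 to 73.4 CPM in the other females.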

How the results depend on the processing

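The count of 0 members called held in all 18 alternatives, and the count of all genes called was 6 to 7 with a library left out. The replicate block gave 5 genes, 0 members and a log2 difference in the Ezh2 to Ezh1 ratio of -0.12 (exact permutation p = 0.75). That difference ran from -0.29 to 0.01 with a library left out. Same-numbered libraries correlated at -0.404, -0.0826, -0.306 and -0.0272 in their deviations from the mean of each sex. These values showed no pairing by number. They cannot exclude shared litters, because the first principal component alone held 52.4% of the variance. The count of correlated pairs, 4 of 45, was the least stable result: it was 0 with Spearman's rho, 0 without Female replicate 1 and Male replicate 2, and 0 to 8 with a library left out. Without length correction, Kmt2b was highest of the Kmt2 genes in 50.0% and Kmt2c lowest in 87.5% of libraries, and Kmt2b exceeded Kmt2c 1.99-fold; over GENCODE coding lengths both shares were 87.5%. The alternative with RefSeq coding lengths was not run, as no protein table was used here. Fold changes near 0 changed sign. With a library left out, Ezh1 ran from -0.044 to 0.09, Jarid2 from -0.035 to 0.0046, Suz12 from -0.13 to 0.027, Isl1 from -0.49 to 0.05, Pax6 from -0.47 to 0.10, Pcgf5 from -0.11 to 0.033 and Psip1 from -0.16 to 0.19. Without Female replicate 1 and Male replicate 2, Suz12 was at 0.025, Pcgf5 at 0.042 and Psip1 at -0.08, and with the length covariate Psip1 was at -0.0049. Kdm6a passed with DESeq2 (adjusted p = 8.82e-08), no filter (0.0388), the 1 CPM filter (0.0482), the length covariate (0.000318) and without Male replicate 2 (0.0229). It missed the threshold in the other alternatives. Among these, edgeR gave an adjusted p of 0.768 with the replicate block and of 0.115 to 0.522 with any other single library left out. The cause of these changes was not tested. The lowest count of any member in a library was 250, for Ezh1. The spreads and list counts without Male replicate 2 and the GENCODE coding lengths were added after seeing the data.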

Other observations

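The predicted gene Gm45120 lies within Eed on the same strand and shares no exonic base with it. It had 14, 128, 18 and 46 counts in Male replicates 1 to 4 and 93, 40, 24 and 18 counts in Female replicates 1 to 4. In Male replicate 2, the library with the least Eed, its counts reached 11.1% of those of Eed. Of the 12 annotated genes that overlap a member, 5 share exonic bases with one, all on the opposite strand, and apart from those over Eed none exceeded 3.31% of the counts of its member.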
